A study of Mus musculus with 6 samples.

Results

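The aldehyde oxidases and xanthine dehydrogenase were followed in dorsal skin of *Bmal1*-/- mice and their *Bmal1*+/- littermates. The group holds 5 genes, *Aox1*, *Aox2* (also called *Aox3l1*), *Aox3*, *Aox4* and *Xdh*, out of 19938 genes that the platform annotation names with a probe set of their own. Each of the 5 has 1 probe set, and none of these probe sets is shared with another gene. The family was chosen by the intensities of these same 6 arrays, with the difference of *Aox4* between the genotypes known, so the differences of its members are given as a description with no test. Skin was taken from 3 *Bmal1*+/- mice, 1 male and 2 female, and from 3 female *Bmal1*-/- mice, and the RNA of each mouse went on its own Affymetrix Mouse Gene 1.0 ST array. All 6 mice were staged as telogen, when the follicle is at rest, and are given as postnatal day 22, although a second label gives day 23 for the male. The mutation is a null allele in every tissue on the C57BL/6J background, and each control carried 1 such allele, since no wild-type skin was on these arrays. The methods give an early afternoon window for skin of the wild-type time course and describe the RNA work on these mice as the same, without giving an hour of collection for them.

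Aldehyde oxidases and xanthine dehydrogenase are related enzymes that share a molybdenum cofactor, iron-sulfur clusters and bound FAD. Xanthine dehydrogenase carries out the last steps of purine breakdown, from hypoxanthine through xanthine to uric acid. Aldehyde oxidases act on aldehydes, retinaldehyde among them, and on nitrogen-containing ring compounds, and pass their electrons to oxygen, which yields superoxide and hydrogen peroxide. In the mouse the 4 aldehyde oxidase genes lie side by side on chromosome 1 in the order *Aox1*, *Aox3*, *Aox4*, *Aox2*, while *Xdh* is on chromosome 17. *Aox1* and *Aox3* are best known from liver, *Aox2* from the nasal mucosa, and *Aox4* from the Harderian gland and the skin.

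*Aox4* (probe set 10346448) was lower in *Bmal1*-/- skin, while the values of its 3 relatives in the cluster and of *Xdh* overlapped between the genotypes. Levels are given as the deposited linear intensity of a probe set. *Aox4* was at 277, 306 and 255 in the *Bmal1*+/- mice and at 86.1, 112 and 104 in the *Bmal1*-/- mice. The highest *Bmal1*-/- value was thus well below the lowest control value, and the male lay between the 2 female controls. The means were 279 ± 26.1 and 100.4 ± 13.1 (SD, n = 3 mice each), so that the *Bmal1*-/- mean was 36.0% of the control mean. After log2 transformation with 16 added to each intensity, which understates folds of dim probe sets, the difference was −1.34 (SE 0.12), or 2.54-fold lower. The lowest control and the highest *Bmal1*-/- mouse were still 1.08 apart on this scale, against a spread of 0.25 within the controls and 0.32 within the *Bmal1*-/- mice. Among the 5 genes, 1 had all *Bmal1*-/- values below all control values. Of the 23410 probe sets with a gene symbol, 7.68% did so, and 6.99% had all *Bmal1*-/- values above all control values, as none of the 5 genes had. In RNA of whole skin, fewer cells that express *Aox4* and less *Aox4* RNA in each cell cannot be told apart.

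**Figure D1:**
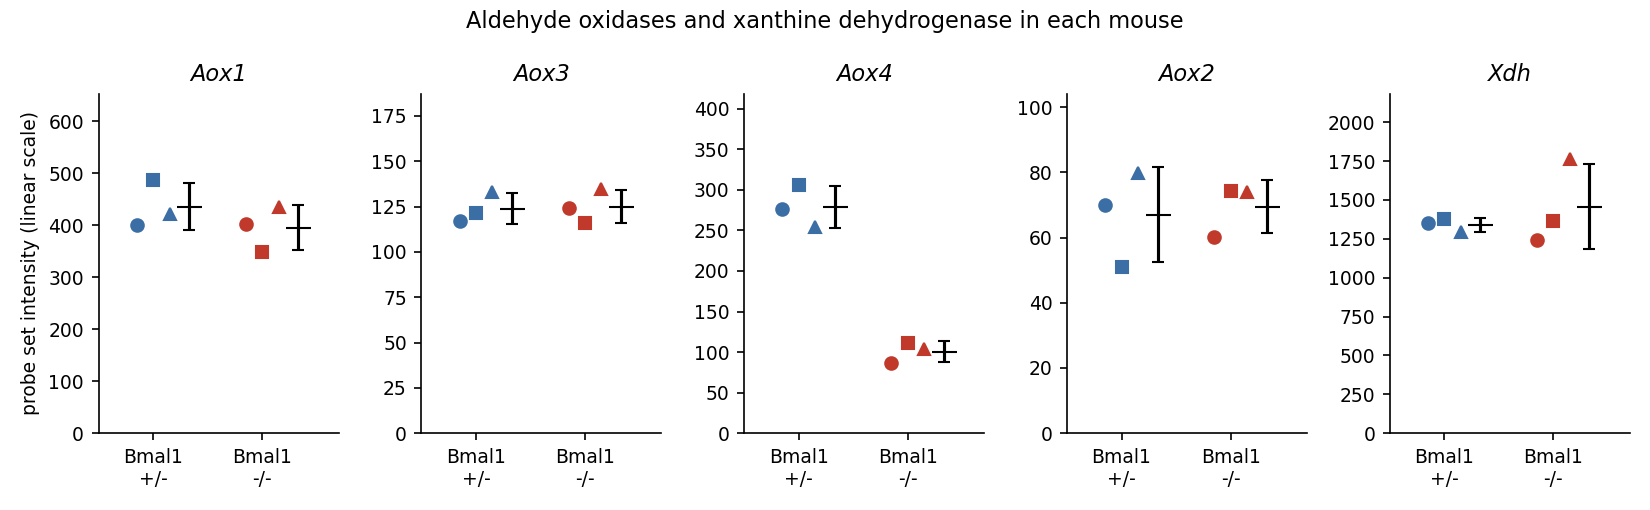
Probe set intensity on a linear scale (vertical axes, each from 0) of the 5 genes in each mouse, with circles, squares and triangles for replicates 1, 2 and 3, and black marks for the mean ± SD of the 3 mice of a genotype. *Aox4* lies at 255 to 306 in the *Bmal1*+/- mice and at 86.1 to 112 in the *Bmal1*-/- mice, while the genotypes overlap for the other 4 genes.

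CLOCK/BMAL1 binds E-boxes, so the stretch before the start of each aldehyde oxidase gene was read for the canonical E-box, CACGTG. The sequences come from RefSeq (GRCm38.p6), in windows of 250 bases before to 50 after the start, and 4 of the 5 genes had such a window, *Xdh* being the other. The 120 bases before each start are shown for the 4 neighbours, since *Aox4* differs from the others in them; capitals mark the E-box.
*Aox1* (chr1:58029849-58029968, plus strand): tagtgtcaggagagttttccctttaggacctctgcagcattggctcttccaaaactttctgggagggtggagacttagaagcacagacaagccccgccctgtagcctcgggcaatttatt
*Aox3* (chr1:58113016-58113135, plus strand): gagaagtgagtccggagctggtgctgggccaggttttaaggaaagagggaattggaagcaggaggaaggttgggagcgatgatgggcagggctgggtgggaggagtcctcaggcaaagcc
*Aox4* (chr1:58210277-58210396, plus strand): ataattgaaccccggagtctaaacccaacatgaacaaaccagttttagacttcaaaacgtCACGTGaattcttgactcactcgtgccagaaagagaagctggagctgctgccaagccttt
*Aox2* (chr1:58278206-58278325, plus strand): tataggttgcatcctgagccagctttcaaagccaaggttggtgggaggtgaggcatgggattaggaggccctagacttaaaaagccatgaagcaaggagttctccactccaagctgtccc

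The *Aox4* window held 1 E-box, from 60 to 55 bases before the start, and the windows of *Aox1*, *Aox3* and *Aox2* held none. The motif reads the same on both strands and was counted once. It was found in 7.15% of all 32851 promoter windows of the table. The related E′-box, CACGTT, and the half-site of the ROR response element, AGGTCA, were found on neither strand of any of the 4 windows, against 4.68% and 16.3% of all windows. A match of letters is not a measured binding site, and binding of BMAL1 was not measured here.

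*Aox1*, a broadly acting aldehyde oxidase, had the highest and the lowest of its 6 values in different genotypes, but with overlap. It was at 399.8, 486 and 421 in the *Bmal1*+/- mice and at 402, 349 and 435 in the *Bmal1*-/- mice. The means were 436 ± 45.2 and 395 ± 43.2 (SD, n = 3 each), and the log2 difference of −0.14 (SE 0.12) was smaller than the SD between mice of 0.15 on this scale. *Aox3*, the neighbour before *Aox4*, was the steadiest of the 4 aldehyde oxidases. Its values were 117, 122 and 133 in the controls and 124, 116 and 135 in the *Bmal1*-/- mice, with a log2 difference of 0.01 (SE 0.07). Its lowest and highest value were both those of *Bmal1*-/- mice.

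*Aox2*, the neighbour after *Aox4*, had values of 70.1, 51.1 and 79.9 in the controls and of 60.2, 74.3 and 73.9 in the *Bmal1*-/- mice. It varied more among the controls, whose SD was 21.8% of their mean, than between the genotypes, with a log2 difference of 0.05 (SE 0.17). The sign of the differences of *Aox3* and *Aox2* turned with quantile normalization, to −0.03 and −0.01. *Xdh*, which makes uric acid, was close to 1 level in the controls, with 1351, 1379 and 1292, and more spread in the *Bmal1*-/- mice, with 1243, 1362 and 1764. The *Xdh* means were 1340.5 ± 44.5 and 1456 ± 273, a log2 difference of 0.10 (SE 0.15). Both the lowest and the highest *Xdh* value were in *Bmal1*-/- mice, and without replicate 3 of that genotype, the highest, the difference was −0.04. Intensities of different probe sets are not comparable, so the 5 genes are not ordered by level.

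**Figure D2:**
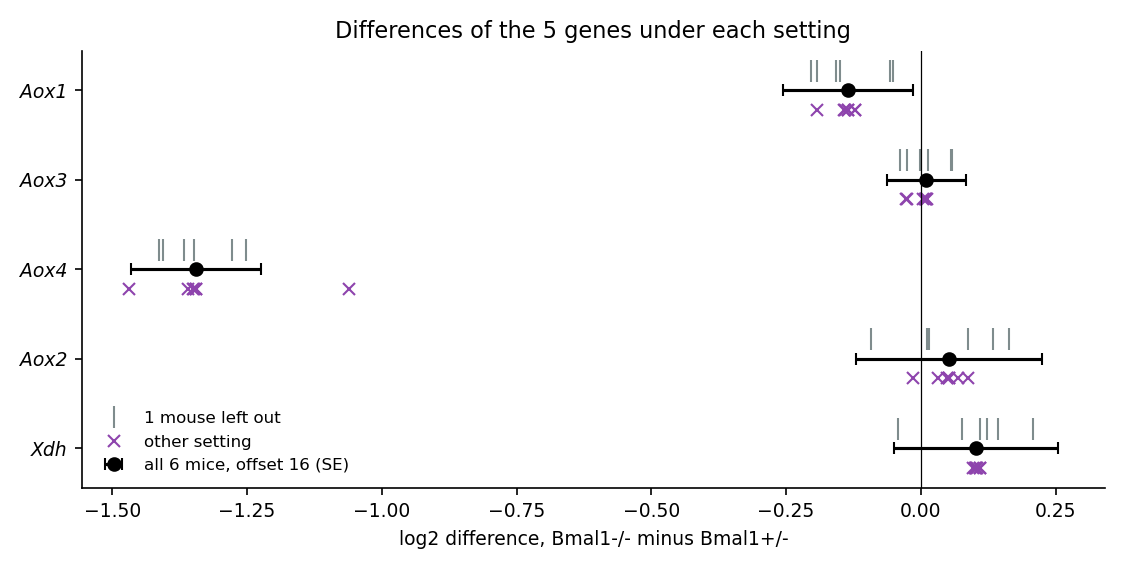
The log2 difference between genotypes (horizontal axis) of each gene with all 6 mice and an offset of 16 (black, with its SE), with 1 mouse left out (grey ticks) and under other settings (purple crosses). *Aox4* stays between −1.47 and −1.06, and the other 4 genes stay between −0.20 and 0.21.

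The difference of *Aox4* ranged from −1.41 to −1.25 when 1 of the 6 mice was left out. Without the male control, so that only females were compared, it was −1.35. The offset mattered most, with −1.47 for an offset of 1 and −1.06 for an offset of 64. No gene measured beside the cluster differed by as much. Of the 10 protein-coding genes on each side of the 4 *Aox* genes, 19 had a probe set of their own and none was called from limma at an adjusted p under 0.05, where 0.231% of all probe sets were called. At an unadjusted p under 0.05 from limma there were 2 of these 19, where 8.77% of all probe sets had such a p, and a regularised test of the Cyber-T type, which called 1.17% of all probe sets, called none of them. Their log2 differences ran from −0.37 to 0.14. *Sgo2a*, a protector of centromere cohesion and the gene next to *Aox1*, had −0.07 (SE 0.15, adjusted p = 0.92 from limma), and *Bzw1*, next to *Aox2*, had 0.01 (SE 0.05, adjusted p = 0.97 from limma).

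**Figure D3:**
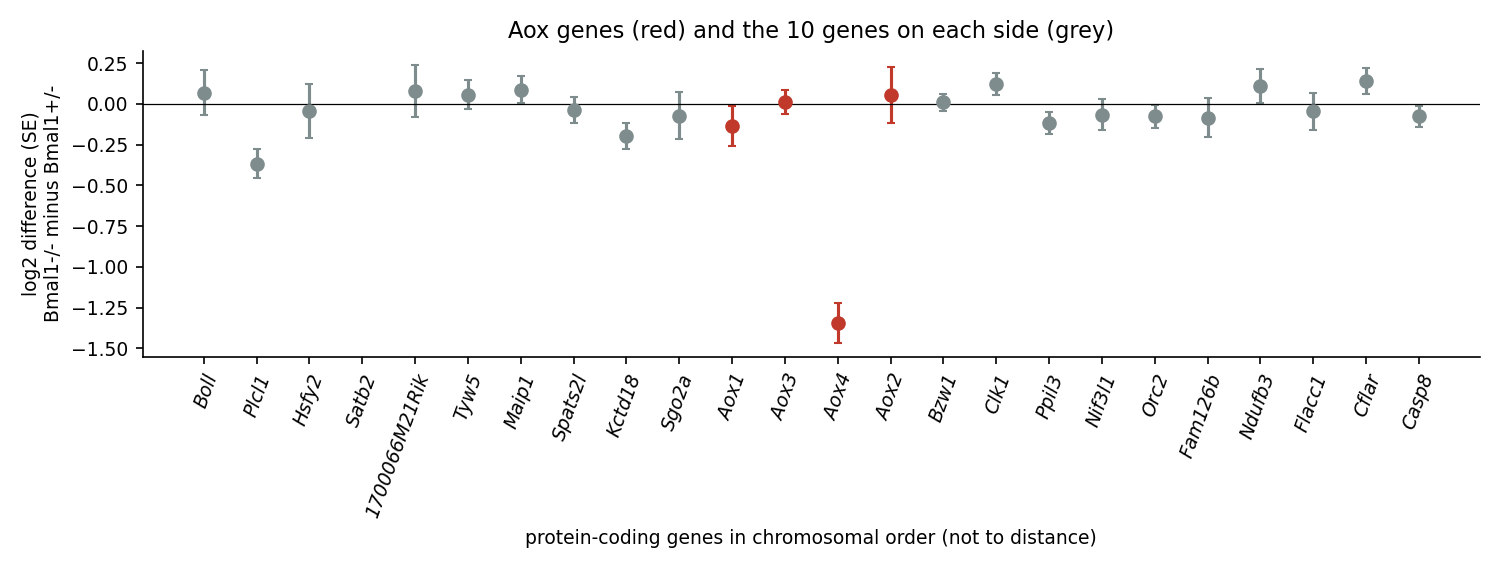
The log2 difference between genotypes (vertical axis) of the 4 *Aox* genes (red) and the 10 protein-coding genes on each side (grey) in their order on chromosome 1; bars are the SE, from the spread of the gene itself for the *Aox* genes and from limma for the others. *Aox4* lies at −1.34 and the measured genes around it between −0.37 and 0.14.

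Around *Xdh*, 19 of the 20 nearest protein-coding genes were measured and none was called at an adjusted p under 0.05 from limma, with 3 at an unadjusted p under 0.05, against 8.77% of all probe sets, and 1, *Ltbp1*, called by the Cyber-T type test, against 1.17%. The next measured genes, *Ehd3* and *Memo1*, had log2 differences of −0.15 and −0.03 (adjusted p = 0.63 and 0.94 from limma). *Ltbp1*, which binds latent TGF-beta and lies 10 genes after *Xdh*, came closest, at 1139 ± 66.1 and 815 ± 69.5 (SD, n = 3 each), a log2 difference of −0.48 (SE 0.08, adjusted p = 0.055 from limma). Its adjusted p ran from 0.0016 to 0.95 over the alternative settings and was under 0.05 in 4 of 19. These were median scaling, robust eBayes and forms of the Cyber-T type test that differ only in degrees of freedom, so not all are separate checks. The highest value, 0.949, was also that of *Slc16a9* in the lists below, so it is not read as particular to *Ltbp1*. The 19 include a Cyber-T form with 4 degrees of freedom, which called none of all probe sets.

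The 3 genes whose profile over the 6 arrays was most like that of *Aox4* were *Gadl1*, *Cyp2f2* and *Trim30d*, among 19081 candidate probe sets. Likeness was the root mean square difference between the centred log2 values, which was 0.134 for *Gadl1*, 0.17 for *Cyp2f2* and 0.173 for *Trim30d*. *Gadl1*, a decarboxylase of acidic amino acids, was at 283, 332 and 314 in the controls and at 102, 151 and 105 in the *Bmal1*-/- mice. *Cyp2f2*, a cytochrome P450, was at 905, 775 and 917 and at 269, 401 and 379. *Trim30d*, of the TRIM family, was at 113, 125 and 117 and at 26.0, 31.7 and 48.8. In each of the 3 genes all *Bmal1*-/- mice lay below all controls, which is the pattern that the likeness selects. None of the 3 had an E-box in its promoter window, against 8.09% of all 27025 genes with a window. With only 3 genes, this count says nothing on whether genes with such a profile hold E-boxes, and genes further down the ranking were not counted. Among genes called at an adjusted p under 0.05 from limma, 4 of 23 lower genes with a window had one (17.4%). So did 3 of 15 higher genes (20.0%).

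**Figure D4:**
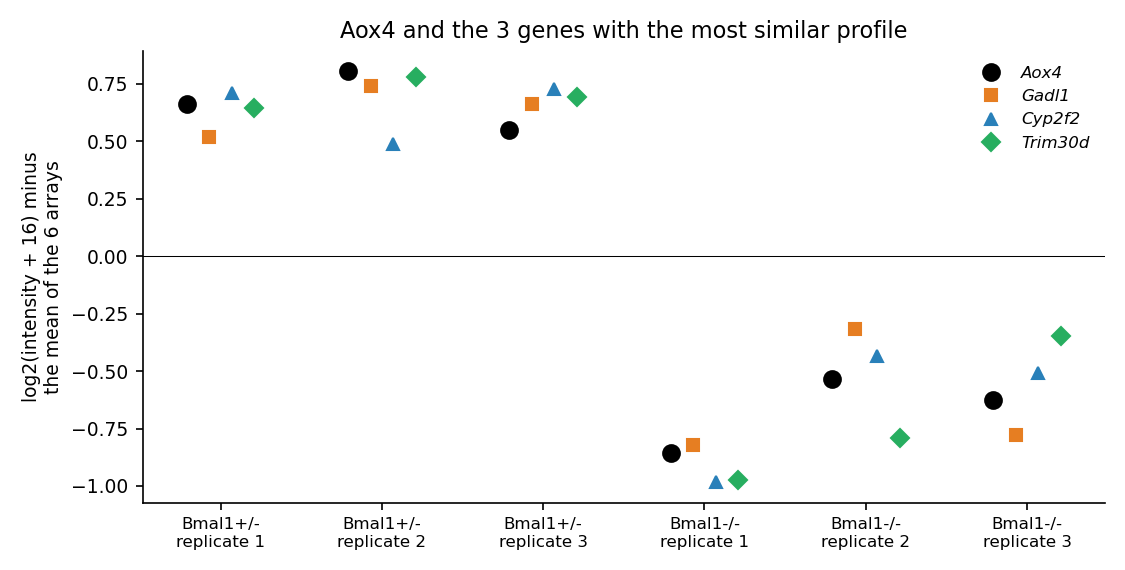
Centred log2(intensity + 16) (vertical axis) of *Aox4* (black) and its 3 most similar genes in each of the 6 mice, side by side within a mouse. All 4 genes lie above 0 in the *Bmal1*+/- mice and below 0 in the *Bmal1*-/- mice, and all 4 are lowest in *Bmal1*-/- replicate 1.

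The genes that supply the cofactor of these enzymes, and those of the pathways they act in, were read from 10 lists of 110 genes, of which 105 were measured. None was called at an adjusted p under 0.05 from limma, where 0.231% of all probe sets were called. At an unadjusted p under 0.05 from limma, 11 were lower and 3 were higher, where 4.6% of all probe sets were lower and 4.17% higher. The Cyber-T type test called 1 higher gene, against 1.17% of all probe sets in either direction. The median log2 difference over the lists was −0.01, against 0.01 for all probe sets. All *Bmal1*-/- values were below all control values in 13 list genes (12.4%), against 7.68% of all probe sets. They were above in 7 (6.67%), against 6.99%. Of the genes named below, *Urah*, *Rdh1*, *Rxrb*, *Aldh1l2*, *Aldh18a1*, *Aldh9a1*, *Aldh3b2*, *Pdxk* and *Gpx7* were among these 13, and *Uox*, *Slc16a9* and *Dhrs3* among these 7. The genes named from each list are those with its largest differences, with a few added after their values were seen.

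The molybdenum cofactor is built by *Mocs1*, *Mocs2*, *Mocs3* and *Gphn*, and *Mocos* adds the sulfur that aldehyde oxidases and xanthine dehydrogenase need. All 6 genes of this list were measured, and their differences ran from −0.07 to 0.08, with a median of 0.04. *Mocos* was at 179, 183 and 186 in the controls and at 176, 194 and 209.6 in the *Bmal1*-/- mice, a log2 difference of 0.07 (SE 0.09, adjusted p = 0.85 from limma). *Nfs1*, a cysteine desulfurase, had 0.08 (SE 0.09, adjusted p = 0.83 from limma). Of the other molybdenum enzymes, sulfite oxidase (*Suox*) had 0.02, and the amidoxime reducing components *Marc1* and *Marc2* had −0.11 and 0.10 (adjusted p = 0.76 and 0.73 from limma for the last pair).

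In the purine pathway, 15 of 16 genes of breakdown were measured, with a median log2 difference of 0.03. *Urah*, which acts after uric acid, was at 1100.5, 1105 and 973 in the controls and at 902, 969 and 808 in the *Bmal1*-/- mice, without overlap, a log2 difference of −0.24 (SE 0.08, adjusted p = 0.42 from limma). *Uox*, urate oxidase, had 21.1 ± 2.35 and 30.7 ± 2.35 (SD, n = 3 each), a log2 difference of 0.33 (SE 0.12, adjusted p = 0.45 from limma), at intensities close to the offset. The salvage genes *Hprt*, *Aprt* and *Adk*, which return bases and adenosine to nucleotides, ran from −0.12 to 0.08. Among 9 urate transport genes the largest difference was that of *Slc16a9*, a monocarboxylate transporter family member. It was at 234, 269 and 283 in the controls and at 408, 319.8 and 408 in the *Bmal1*-/- mice, a log2 difference of 0.50 (SE 0.11, adjusted p = 0.18 from limma), and it was the gene called by the Cyber-T type test. Its adjusted p ran from 0.017 to 0.95 over the alternative settings and was under 0.05 in 2 of 19. Both were forms of the Cyber-T type test that differ only in degrees of freedom, so they are not separate checks. The highest value was the same as that of *Ltbp1*. *Abcc4*, an exporter, had −0.21 (SE 0.10, adjusted p = 0.61 from limma).

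Retinaldehyde is a substrate that *Aox4* shares with the retinal dehydrogenases. Of 25 genes of retinaldehyde and retinoic acid metabolism 24 were measured, with a median log2 difference of −0.02, and at an unadjusted p under 0.05 from limma 3 were lower and 1 was higher, against 4.6% and 4.17% of all probe sets. *Aldh1a7*, a relative of the retinal dehydrogenases, was at 904, 1019 and 638 in the controls and at 703, 647 and 536 in the *Bmal1*-/- mice, a log2 difference of −0.41 (SE 0.16, adjusted p = 0.49 from limma). *Aldh1a1* and *Rdh1* were the other lower genes at that unadjusted p, with −0.40 and −0.27 (adjusted p = 0.45 and 0.35 from limma). *Dhrs3* was the higher gene, with 0.22 (adjusted p = 0.30 from limma). *Rbp4*, the carrier of retinol in blood, had the largest difference of the list, −0.54 (SE 0.28, adjusted p = 0.62 from limma), but its control values of 1220.5, 2131 and 773 enclosed the *Bmal1*-/- values of 929, 825 and 837. Without control replicate 2, the highest, the difference of *Rbp4* was −0.17, and without control replicate 3, the lowest, it was −0.89. The retinoic acid receptors ran from −0.15 for *Rxrb* to 0.23 for *Rxrg* (adjusted p = 0.62 and 0.63 from limma).

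Of the 21 other aldehyde and alcohol dehydrogenases, 5 were lower and none higher at an unadjusted p under 0.05 from limma, against 4.6% and 4.17% of all probe sets, with a list median of −0.06. The largest differences were those of *Aldh1l2*, a mitochondrial enzyme of folate metabolism, and *Aldh18a1*, which makes a precursor of proline. *Aldh1l2* was at 772, 443 and 437 in the controls and at 399.6, 433 and 329 in the *Bmal1*-/- mice, a log2 difference of −0.45 (SE 0.20, adjusted p = 0.56 from limma). *Aldh18a1* had −0.33 (SE 0.13, adjusted p = 0.51 from limma). In both genes the highest of the 6 values was that of the male control, and without this mouse the differences were −0.19 for *Aldh1l2* and −0.17 for *Aldh18a1*. The other lower genes at that unadjusted p were *Aldh9a1*, *Aldh3a1* and *Aldh3b2*. They had −0.22, −0.32 and −0.17 (adjusted p = 0.40, 0.41 and 0.47 from limma), with overlap between the genotypes in *Aldh3a1* only. Their differences without the male are not given here.

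Pyridoxal and methylated nicotinamide are also oxidised by aldehyde oxidases. *Pdxk*, which phosphorylates pyridoxal, was at 805, 850.4 and 886 in the controls and at 748, 723 and 699 in the *Bmal1*-/- mice, without overlap, a log2 difference of −0.22 (SE 0.06, adjusted p = 0.32 from limma). The 2 probe sets of *Pdxp*, which removes that phosphate, disagreed in sign, with 0.19 and −0.12. Among 14 measured genes that remove superoxide and hydrogen peroxide, the median was −0.00. *Gpx7*, a peroxidase of the endoplasmic reticulum, had 282 ± 25.9 and 219 ± 18.1 (SD, n = 3 each), a log2 difference of −0.34 (SE 0.10, adjusted p = 0.30 from limma). *Gpx8* had −0.19 (adjusted p = 0.63 from limma).

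**Figure D5:**
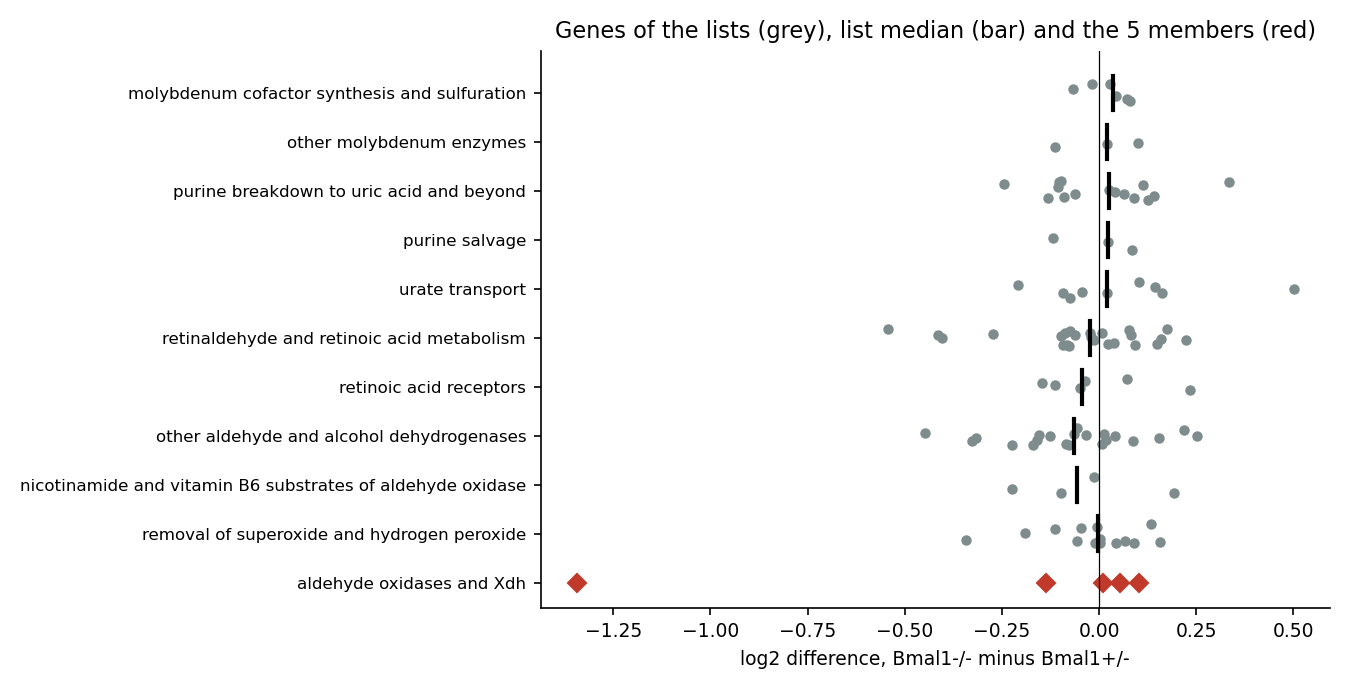
The log2 difference between genotypes (horizontal axis) of each measured gene of the 10 lists (grey), with the median of each list (black bar), and of the 5 members (red). The 105 list genes lie between −0.54 and 0.50, and *Aox4* lies at −1.34.

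Sebaceous glands, fat and vessels are sites in skin where these enzymes could be made, so marker levels were set beside *Aox4*. The summed intensity of 9 sebaceous gland markers was 27142 to 28321 in the controls and 23706 to 28140 in the *Bmal1*-/- mice, which overlapped, and none of the 9 was called. The log2 difference of this sum was −0.11. The sums in *Bmal1*-/- replicates 1, 2 and 3 were 23706, 28140 and 25210, and their part in the difference of *Aox4* was not tested. The sums of 8 adipocyte markers were 26622 to 28952 and 26337 to 30224, and those of 7 endothelial markers 4315 to 4588 and 4541 to 5724. The sums of 6 epidermal markers were 44208 to 48930 and 42075 to 47087, those of 7 fibroblast markers 74069 to 81707 and 67928 to 75664, those of 5 macrophage markers 5209 to 5800.2 and 4352 to 5383, and those of 6 striated muscle markers 53671 to 69742 and 55856 to 62918. The log2 differences of the sums were 0.06 for adipocyte, 0.15 for endothelial and −0.04 for epidermal markers. They were −0.13 for fibroblast, −0.14 for macrophage and −0.03 for striated muscle markers. The genotypes overlapped in all 7 sums, and no marker of any list was called at an adjusted p under 0.05 from limma. A sum is weighted to its brightest probe sets, such as *Scd1*, with a control mean of 10122. Marker by marker, the log2 differences ran from −0.87 to 0.43 in the adipocyte list. They ran from 0.06 to 0.27 in the endothelial list and from −0.19 to −0.09 in the macrophage list.

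The arrays were alike in scale, with median intensities of 219 to 235.5. The targeted gene, listed as *Arntl*, was at 325 to 365 in the *Bmal1*+/- mice and at 569 to 664 in the *Bmal1*-/- mice. No source used here places its probes inside or outside the deleted part, so it does not check the genotype labels. The paper also reports this gene as upregulated in *Bmal1*-/- skin, and ascribes that to lost repression by *Nr1d1* and *Nr1d2*. That account was not tested here. Probe sequences were not used here, so signal shared between the related *Aox* genes was not tested.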

How the data were processed

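The linear intensity of each probe set was used as deposited by the authors, whose processing notes name PLIER 2.0 and Affymetrix Expression Console 1.1. How background was corrected and arrays were scaled, and the genome build, are not given. Here log2(intensity + 16) was taken with no further normalization. The 23410 probe sets with a gene symbol in the platform annotation entered limma 3.58.1 in R 4.3.3 (lmFit, then trended eBayes; two-sided tests of *Bmal1*-/- less *Bmal1*+/-), and p-values were adjusted over all of them by Benjamini-Hochberg. A gene with several probe sets is given by the brightest. The number of arrays, 3 per genotype, limits the precision.

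Members and lists were chosen with earlier results of these data known. Named are the members, in each list the called genes or otherwise the 2 with the largest difference, the nearest measured neighbours and any called one, and the 3 genes most like a member whose log2 values range over at least 1, among probe sets of mean intensity of at least 64. *Suox*, *Hprt*, *Ltbp1*, *Aldh1a1*, *Rdh1*, *Dhrs3*, *Aldh9a1*, *Aldh3a1* and *Aldh3b2* were named after their values were seen. Motifs were searched in RefSeq promoter windows. No protein table was used here. Alternatives changed the offset, normalization, filter, rows, variance model, test, block, sex term or mice. The Cyber-T type test used a window of 101 probe sets, a prior weight of 10 and 22 degrees of freedom. The degrees of freedom were first set to 24 and then changed to 22 so that the count of calls matched an earlier analysis of these data, so that count is not an independent check. Forms with 24 and with 4, the degrees of freedom of the samples alone, were added after the data were seen. The limma and Cyber-T type fits were tested on simulated data, where the Cyber-T type test made a larger share of false calls than limma. The simulation shuffled the SDs among probe sets, which removes the relation of spread to intensity that both fits use. Whether the ranking of limma and the Cyber-T type test holds for the arrays themselves was not tested. Figures were drawn with matplotlib 3.10.9.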

Additional observations from a re-analysis of the deposited data

How the results depend on the processing

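All 5 members kept their difference within 1 SD between mice under 13 alternatives each, except *Aox4* with an offset of 64, at −1.06, which follows from adding a larger constant to low values. *Aox4* and *Aox1* were lower in all 13, and *Aox3*, *Aox2* and *Xdh* changed sign in some. Not all 13 are separate checks. Leaving out dim probe sets and the replicate block could not change the difference of a member. The sex term gave the same value as leaving out the male control. Each member has 1 probe set, so the planned mean over probe sets of a gene could not differ and was not run. With the replicate number as a block, 34 probe sets were lower and 20 higher, against 31 and 23, and no call of a list changed. The differences of the members could not change with this block, since each replicate number occurs once in each genotype. The correlations of same-numbered mice in their deviations were 0.078, −0.35 and 0.056, so the numbers were not taken as pairs. The counts over all probe sets were 19 lower and 15 higher with all rows tested, 16 and 11 without the intensity trend, 177 and 96 with the Cyber-T type test, 185 and 102 with 24 degrees of freedom in it, 0 and 0 with 4, and 93 and 59 at an unadjusted p under 0.001 from limma. With 1 mouse left out they were 22 to 34 lower and 13 to 23 higher, the higher count being 13 without *Bmal1*-/- replicate 3 and 15 without *Bmal1*+/- replicate 2 or *Bmal1*-/- replicate 1. Of the list genes, 1 was higher with the Cyber-T type test at 22 or 24 degrees of freedom. Of the flanking genes, 1 was lower with median scaling, with robust eBayes, with the Cyber-T type test at 22 or 24 degrees of freedom and at an unadjusted p under 0.001. The cause of these changes was not tested.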
